A study of Mus musculus with 16 samples.

Results

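The HoxD cluster is a run of 9 homeobox genes on mouse chromosome 2, Hoxd1, Hoxd3, Hoxd4, Hoxd8, Hoxd9, Hoxd10, Hoxd11, Hoxd12 and Hoxd13. The members were all probes carrying 1 of these names on an Agilent whole mouse genome array, which gave 12 probes for the 9 genes, out of 28786 genes with a probe. RNA came from E14 mouse embryonic stem cells that stably carried a lentiviral short hairpin RNA, directed either against Sirt1, whose product removes acetyl groups from proteins using NAD (sh-SIRT1), or a control (sh-Control). Both lines grew with leukemia inhibitory factor and received 20 nM retinoic acid (RA) or its vehicle ethanol for 2 days. The groups were sh-SIRT1 RA (6 arrays), sh-Control RA (4), sh-SIRT1 vehicle (3) and sh-Control vehicle (3). Each line is a stable population, and how many clones lie behind it was not stated in the labels. The submitters describe 3 pairs of lines in duplicate without saying which arrays share a culture, so p-values reflect array-to-array spread that may in part be technical.

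Hox genes encode transcription factors that set position along the body axis, and genes at the 3′ end of a cluster, such as Hoxd1, act earlier and further forward than genes at the 5′ end, such as Hoxd13. RA binds nuclear receptors that rest on short response elements, and the 3′ genes of Hox clusters are well known to respond to it. In undifferentiated embryonic stem cells the clusters are held silent by Polycomb complexes. The cluster is annotated with Hoxd13 starting at position 74668225 and Hoxd1 ending at 74765142 of chromosome 2 (GRCm38.p6), on the plus strand. The annotated span of Hoxd4 lies inside that of Hoxd3, and those of Hoxd10 and Hoxd11 overlap.

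Levels below are log2 of the processed intensity minus the array's 75th percentile, so that 0 is the 75th percentile. Each probe had 60 bases, and the longest run it shared with a probe of another gene on the array was 12 to 15 bases, while similarity to other transcripts was not analysed here. The probes of Hoxd9, Hoxd10, Hoxd12 and Hoxd13 on which the results below turn are shown as the array carries them, with positions in build mm7 from the scanner files. For Hoxd9 and Hoxd13 the second probe is printed, since its results depart from those of the first.
Hoxd9 probe 2 (chr2:74542992-74543051): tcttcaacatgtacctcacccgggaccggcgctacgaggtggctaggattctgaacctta
Hoxd10 (chr2:74537939-74537998): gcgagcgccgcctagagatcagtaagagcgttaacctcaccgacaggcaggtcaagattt
Hoxd12 (chr2:74518833-74518892): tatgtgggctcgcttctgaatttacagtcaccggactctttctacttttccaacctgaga
Hoxd13 probe 2 (chr2:74513664-74513723): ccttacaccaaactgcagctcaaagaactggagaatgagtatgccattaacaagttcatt
The place of each probe within exons or untranslated regions was not computed here.

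RefSeq promoter windows were available for all 9 genes, 10 windows in all because Hoxd11 has a pair of starts. The 250 bases before the start are shown for Hoxd4 and Hoxd8, whose RA effects passed as larger in sh-SIRT1 cells in the fit reported. With slide as a fixed block they did not pass. Also shown are Hoxd9 and Hoxd13, which had the largest lower bounds on the RA effect in sh-SIRT1 cells among the HoxD genes. Hoxd12, whose RA effect differed too in the fit reported, is not shown, and its window held neither AGGTCA nor AGTTCA. Capitals mark a nuclear receptor half-site, AGGTCA or AGTTCA, on either strand (read as TGACCT or TGAACT where it lies on the minus strand). Positions are GRCm38.p6, plus strand.
Hoxd4 (chr2:74721728-74721977): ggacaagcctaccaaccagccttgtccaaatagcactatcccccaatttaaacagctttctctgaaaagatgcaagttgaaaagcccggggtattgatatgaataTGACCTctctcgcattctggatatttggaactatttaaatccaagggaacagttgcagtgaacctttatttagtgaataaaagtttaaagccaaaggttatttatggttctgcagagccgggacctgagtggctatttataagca
Hoxd8 (chr2:74704365-74704614): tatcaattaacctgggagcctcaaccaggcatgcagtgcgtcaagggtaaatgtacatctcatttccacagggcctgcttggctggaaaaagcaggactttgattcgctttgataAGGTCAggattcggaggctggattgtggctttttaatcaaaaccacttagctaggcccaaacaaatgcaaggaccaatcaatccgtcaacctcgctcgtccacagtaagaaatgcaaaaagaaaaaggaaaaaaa
Hoxd9 (chr2:74697513-74697762): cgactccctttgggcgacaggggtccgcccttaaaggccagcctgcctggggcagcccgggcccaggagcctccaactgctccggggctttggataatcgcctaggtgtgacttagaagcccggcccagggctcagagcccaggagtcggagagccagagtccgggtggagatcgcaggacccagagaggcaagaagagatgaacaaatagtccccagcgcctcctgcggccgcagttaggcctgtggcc
Hoxd13 (chr2:74667975-74668224): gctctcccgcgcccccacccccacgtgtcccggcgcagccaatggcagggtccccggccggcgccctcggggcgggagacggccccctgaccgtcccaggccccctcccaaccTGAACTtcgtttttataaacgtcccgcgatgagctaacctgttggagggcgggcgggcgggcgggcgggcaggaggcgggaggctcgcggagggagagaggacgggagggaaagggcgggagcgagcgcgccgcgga
AGGTCA was found in the windows (250 bases before to 50 after the start) of Hoxd3, Hoxd4, Hoxd8 and Hoxd10, 4 of 10 windows, against 16.3% of 32851 windows of all genes. Relative to the start it lay at -145 to -140 for Hoxd4, at -135 to -130 for Hoxd8, at -161 to -156 for Hoxd3 and at -69 to -64 for Hoxd10. AGTTCA was found in the Hoxd13 window alone among the HoxD windows, at -137 to -132, against 14% of all windows. Direct repeats of such half-sites (those named, and the same with G as the first base) spaced by 5 or 2 bases were in none of the 10 windows, and in 0.0974% and 0.268% of all windows. The GC content of the HoxD stretches ranged from 40.4% for Hoxd4 to 74.4% for Hoxd13, against a median of 52.4% over all windows. A match is a description of letters and not a binding site.

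On each array 60.3 to 68.6% of spots were well above background, and the number of arrays limits the precision. Sirt1 itself was lower by 2.18 ± 0.12 (SE) under RA and by 1.81 ± 0.15 in vehicle in sh-SIRT1 cells (limma adjusted p = 2.48e-07 and 4.05e-05). All 9 stem cell markers on the array were well above background on all 16 arrays. Their mean level was 4.07 to 4.60 on the sh-SIRT1 RA arrays, against 4.46 to 4.98 on the sh-Control RA arrays. Under RA 4 of the 9 were lower in sh-SIRT1 than in sh-Control cells and none was higher (median -0.47). Of all genes tested 11.7% were lower and 8.61% higher. Against sh-Control RA array 1 alone the median over the 9 was -0.69. RA against vehicle lowered 6 and raised 1 of the 9 in sh-SIRT1 cells, and lowered 4 and raised 1 in sh-Control cells. Of all genes tested RA lowered 35.3% and raised 23% in sh-SIRT1 cells, and lowered 27.2% and raised 19.7% in sh-Control cells. The sh-Control RA arrays stood apart from each other: the Y-linked gene Ddx3y was at 0.41 to 0.94 on the sh-SIRT1 RA arrays, against 0.23 on sh-Control RA array 1 and -6.91, -8.01 and -8.12, not well above background, on sh-Control RA arrays 2 to 4. It was well above background on all 6 vehicle arrays. The mean of 10 primitive endoderm markers was -0.92 to -0.14 on the sh-SIRT1 RA arrays, against 1.62, -0.61, -1.51 and -1.45 on sh-Control RA arrays 1 to 4, and -3.87 to -3.61 in sh-SIRT1 vehicle, against -3.23 to -3.19 in sh-Control vehicle. The mean of 7 fibroblast markers, of 10 listed, was -0.46 to 0.85 on the sh-SIRT1 RA arrays, against 0.21, 0.95, -1.52 and -1.75 on sh-Control RA arrays 1 to 4, and -3.37 to -2.91 in sh-SIRT1 vehicle, against -2.71 to -2.22 in sh-Control vehicle. The part of these differences in the HoxD results was not tested, and values with sh-Control RA array 1 alone as the sh-Control RA group stand beside the results, where limma assumes that the single array varies like the other groups. Fewer cells with a transcript and less of it per cell cannot be told apart in such RNA.

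Every HoxD level lay below the 75th percentile of its array, from -8.23 to -2.95, while the lowest level called well above background was -5.99 to -5.25 depending on the array. Outside RA the cluster was almost without signal. On the 3 sh-SIRT1 vehicle arrays Hoxd12 alone was well above background (3 of 3 arrays), and on the 3 sh-Control vehicle arrays Hoxd1 alone, on 1 of 3. For Hoxd4, Hoxd8 and both Hoxd9 probes the scanner software put a surrogate value, a stand-in for a signal too close to background, on every sh-SIRT1 vehicle array and on 2 or 3 of the 3 sh-Control vehicle arrays, so their vehicle levels have no order. Hoxd3, with both probes, and Hoxd11 were not well above background on any of the 16 arrays.

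**Figure D1:**
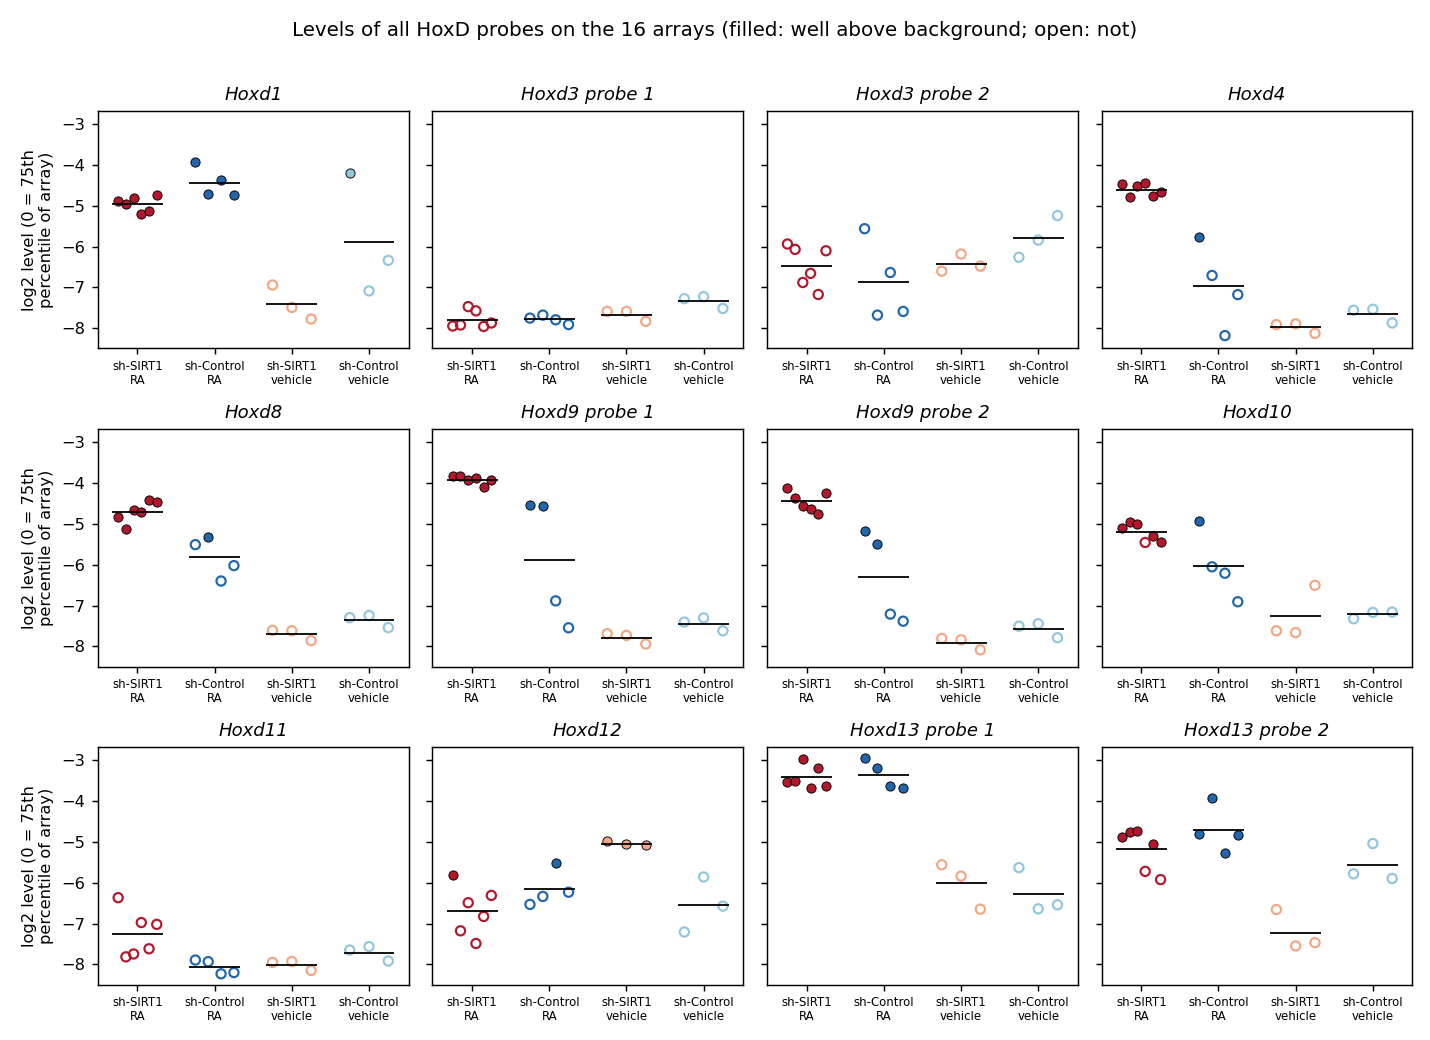
Log2 level (0 is the array's 75th percentile) of each of the 12 HoxD probes on each of the 16 arrays, by group. Points are arrays, filled where well above background, and lines are group means. Hoxd4, Hoxd8 and both Hoxd9 probes were well above background on all 6 sh-SIRT1 RA arrays, but on 1 (Hoxd4, Hoxd8) or 2 (Hoxd9) of 4 sh-Control RA arrays.

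The tests took a probe only where every array of some group measured it well above background, which held for 6 of the 9 genes (Hoxd1, Hoxd4, Hoxd8, Hoxd9, Hoxd12 and Hoxd13). A gene that passed through 1 group was thereby more likely to differ, so the counts below describe the members that passed and not the cluster as a whole. Hoxd4, Hoxd8 and Hoxd9 passed through sh-SIRT1 RA alone and Hoxd12 through sh-SIRT1 vehicle alone, in each case the group where they were highest. Hoxd3, Hoxd10 and Hoxd11 were not tested in the fit reported. Differences are limma log2 differences ± SE over 18278 genes with Benjamini-Hochberg adjustment, and all 16 arrays share the fit, so that comparisons share arrays. Where no array of a group was well above background, the fold is a lower bound, taken per array against the dimmest spot well above background or, if higher, the probe itself. The bound was not itself tested, and an adjusted p printed beside it is that of the fitted limma difference. For Hoxd4, Hoxd8 and Hoxd9 in sh-Control cells the mean under RA lay below that limit, so no fold can be given there, and the fitted differences are model values that rest partly on signals at background.

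RA against vehicle asks which HoxD genes the morphogen raised in each line. In sh-SIRT1 cells 5 of the 6 tested genes were higher under RA and 1, Hoxd12, was lower, while 58.2% of all genes tested passed, 23% higher and 35.3% lower. In sh-Control cells 4 of the 6, Hoxd1, Hoxd8, Hoxd9 and Hoxd13, were higher and none was lower, while 46.8% of all genes passed, 19.7% higher and 27.2% lower. The median difference over the 6 genes was 2.79 in sh-SIRT1 cells and 1.5 in sh-Control cells, against -0.13 and -0.14 over all genes tested. In sh-SIRT1 cells the arrays did not overlap for 5 genes that were higher and 1 lower, as for 22.6% and 35.1% of all genes. In sh-Control cells this held for 2 higher (Hoxd8 and Hoxd13) and 0 lower, against 19.2% and 28.3%.

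Hoxd1, the 3′ end gene, which in mouse helps sensory neurons find their targets, was at -4.88, -4.96, -4.80, -5.19, -5.13 and -4.74 on the sh-SIRT1 RA arrays, against -6.94, -7.49 and -7.77 on the sh-SIRT1 vehicle arrays. The groups did not overlap, and it rose at least 1.67-fold (adjusted p = 2.89e-04, means -4.95 and -7.40). In sh-Control cells Hoxd1 was at -3.92, -4.70, -4.38 and -4.73 under RA, against -4.21, -7.09 and -6.34 in vehicle. These groups overlapped through vehicle array 1, which was the only one well above background, and the difference was 1.44 ± 0.48 (adjusted p = 0.0229). Without sh-Control vehicle array 1 it was 2.28 (adjusted p = 4.07e-05). Without sh-Control vehicle array 2 or 3 or RA array 1 it did not pass, at 0.84, 1.21 and 1.27 (adjusted p = 0.137, 0.0914 and 0.0557), nor with slide as a fixed block (1.37, adjusted p = 0.0516) or RA array 1 alone (1.95, adjusted p = 0.0742).

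Hoxd4, a vertebra patterning gene with a known RA-responsive enhancer, was at -4.48, -4.79, -4.51, -4.44, -4.76 and -4.67 on the sh-SIRT1 RA arrays, against -7.91, -7.89 and -8.12 on the sh-SIRT1 vehicle arrays. All RA arrays were higher, and Hoxd4 was at least 2.12-fold higher under RA (adjusted p = 1.96e-06). In sh-Control cells it was at -5.78, -6.71, -8.18 and -7.18 under RA, against -7.56, -7.53 and -7.87 in vehicle. Of the RA arrays, 1 was well above background and array 3 lay below all vehicle arrays, so the difference of 0.69 ± 0.37 did not pass (adjusted p = 0.137). With sh-Control RA array 1 alone it was 1.88 (adjusted p = 4.81e-05), and without array 3 it was 1.10 (adjusted p = 0.00417).

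Hoxd8, which lies in the middle of the cluster, was at -4.83, -5.12, -4.68, -4.72, -4.41 and -4.47 on the sh-SIRT1 RA arrays, against -7.61, -7.62 and -7.86 on the sh-SIRT1 vehicle arrays. It was at least 1.99-fold higher under RA (adjusted p = 6.42e-08). In sh-Control cells it was at -5.51, -5.31, -6.40 and -6.02 under RA, against -7.30, -7.24 and -7.54 in vehicle. The groups did not overlap here either, but only RA array 2 was well above background and all 3 vehicle values are surrogates. The fitted difference was 1.55 ± 0.23 (adjusted p = 9.09e-05), and 1.85 with RA array 1 alone (adjusted p = 2.67e-04).

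Hoxd9, which acts in the limb and in the lumbar spinal cord, was at -3.83, -3.83, -3.94, -3.88, -4.11 and -3.92 on the sh-SIRT1 RA arrays with its first probe, against -7.69, -7.73 and -7.94 on the sh-SIRT1 vehicle arrays. It was at least 3.42-fold higher under RA (adjusted p = 2.18e-05). In sh-Control cells the same probe was at -4.55, -4.57, -6.89 and -7.54 under RA, against -7.40, -7.30 and -7.62 in vehicle. RA arrays 1 and 2 were well above background and arrays 3 and 4 lay at or near the vehicle arrays. The difference of 1.56 ± 0.56 passed (adjusted p = 0.0334), but not without RA array 1 or 2 (1.11 and 1.12, adjusted p = 0.0894 and 0.0949) or without vehicle array 1, 2 or 3 (1.57, 1.63 and 1.47, adjusted p = 0.0749, 0.0621 and 0.0894). It did not pass with slide as a fixed block either (1.64, adjusted p = 0.0595), while with RA array 1 alone it was 2.89 (adjusted p = 1.56e-06). The second Hoxd9 probe, tested among all kept probes, gave at least 2.37-fold in sh-SIRT1 cells (adjusted p = 5.54e-06) and 1.27 ± 0.43 in sh-Control cells (adjusted p = 0.0260).

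Hoxd13, the 5′ end gene needed for digits, was at -3.55, -3.51, -2.98, -3.70, -3.19 and -3.63 on the sh-SIRT1 RA arrays, against -5.56, -5.84 and -6.65 on the sh-SIRT1 vehicle arrays. In sh-Control cells it was at -2.95, -3.20, -3.63 and -3.68 under RA, against -5.63, -6.64 and -6.54 in vehicle. It was well above background on all 10 RA arrays and on none of the 6 vehicle arrays. RA raised it at least 4.73-fold in sh-SIRT1 cells and at least 4.06-fold in sh-Control cells (adjusted p = 2.67e-06 and 3.72e-06). With sh-Control RA array 1 alone its fitted difference in sh-Control cells was 3.32 (adjusted p = 3.54e-04). The second Hoxd13 probe gave at least 1.43-fold in sh-SIRT1 cells (adjusted p = 1.49e-04). In sh-Control cells its fitted difference of 0.87 ± 0.37 did not pass (adjusted p = 0.0669), and there its groups overlapped. All sh-Control RA arrays but no sh-Control vehicle array were well above background with this probe, which gives at least 1.53-fold. Both probes of Hoxd13 were thus higher under RA in that line, but only the first passed.

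Hoxd12, another 5′ gene of the digits, ran the other way in sh-SIRT1 cells. It was at -5.82, -7.18, -6.49, -7.49, -6.83 and -6.31 on the sh-SIRT1 RA arrays, against -4.99, -5.05 and -5.09 on the sh-SIRT1 vehicle arrays. All RA arrays were lower, 1 of 6 was still well above background, and the fitted limma difference was -1.64 ± 0.35 (adjusted p = 0.00104). The RA mean of -6.69 lay below the dimmest level well above background on each of these RA arrays (-5.99 to -5.42). The size of the fall therefore rests partly on signals at background. With the normexp background correction described below the difference was -0.03 and did not pass (adjusted p = 0.971). In sh-Control cells it was at -6.53, -6.34, -5.52 and -6.23 under RA, against -7.21, -5.86 and -6.57 in vehicle. These groups overlapped, and the difference of 0.39 ± 0.38 did not pass (adjusted p = 0.408), nor did that with RA array 1 alone (0.015, adjusted p = 0.988).

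**Figure D2:**
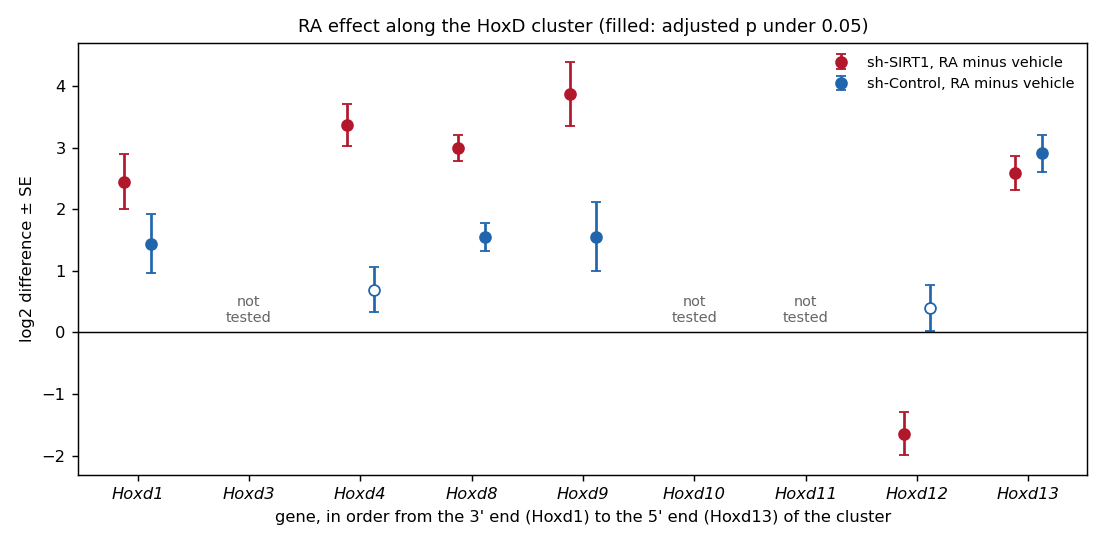
Fitted log2 difference between RA and vehicle (± SE) for the 6 tested HoxD genes in cluster order, sh-SIRT1 left of sh-Control for each gene. Filled points have an adjusted p under 0.05. Vehicle levels are mostly at background, so these are fitted differences and not measured folds. Hoxd12 is at -1.64 in sh-SIRT1 cells and 0.39 in sh-Control cells, and Hoxd13 at 2.59 and 2.90.

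Hoxd10, which acts in the lumbar spinal cord and the limb, was at -5.11, -4.97, -5.00, -5.46, -5.30 and -5.44 on the sh-SIRT1 RA arrays, against -7.62, -7.66 and -6.51 on the sh-SIRT1 vehicle arrays. It missed the filter because 5 and not all 6 of the RA arrays were well above background. Its level was at least 1.40-fold higher on the RA arrays, and under the filter of at least 3 arrays of a group the difference was 2.05 ± 0.34 (adjusted p = 1.54e-04). In sh-Control cells it was at -4.93, -6.05, -6.21 and -6.91 under RA, with array 1 well above background, against -7.32, -7.17 and -7.16 in vehicle. Under the same filter that difference was 1.19 ± 0.37 (adjusted p = 0.0169).

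Hoxd11, which patterns the forearm, ranged from -7.81 to -6.37 on the sh-SIRT1 RA arrays and from -8.23 to -7.89 on the sh-Control RA arrays, against -8.15 to -7.93 in sh-SIRT1 vehicle and -7.92 to -7.56 in sh-Control vehicle. Hoxd3, which patterns the first neck vertebrae, ranged with its second probe from -7.17 to -5.94 on the sh-SIRT1 RA arrays and from -7.68 to -5.56 on the sh-Control RA arrays, against -6.60 to -6.18 in sh-SIRT1 vehicle and -6.26 to -5.24 in sh-Control vehicle. Its first probe held a surrogate value on all 16 arrays. With no filter on dim probes, Hoxd11 was higher by 0.75 under RA in sh-SIRT1 cells (adjusted p = 0.0360) and by 0.81 in sh-SIRT1 than in sh-Control cells under RA (adjusted p = 0.0467). All sh-SIRT1 RA arrays lay above the other group in both, but no value was well above background and most of those set against them are surrogates. In the same fit Hoxd3 did not pass in any of the 5 comparisons (adjusted p = 0.0747 to 0.944).

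sh-SIRT1 against sh-Control under RA asks which HoxD genes differed between the lines under RA. Hoxd4, Hoxd8 and Hoxd9 were higher in sh-SIRT1 cells, 3 of the 6 tested genes with none lower, while 20.3% of all genes passed, 8.61% higher and 11.7% lower. All 3 entered the test through sh-SIRT1 RA alone, the group where they were highest, so the count does not speak for the cluster. The values of these genes are those given above for the RA arrays, and for each of the 3 no sh-SIRT1 RA array overlapped a sh-Control RA array, as for 6.44% of all genes in that direction. Hoxd4 was higher by 2.35 ± 0.31 (adjusted p = 2.60e-04), Hoxd8 by 1.11 ± 0.19 (adjusted p = 0.00138) and Hoxd9 by 1.97 ± 0.47 (adjusted p = 0.00968). The second Hoxd9 probe gave 1.87 ± 0.36 (adjusted p = 0.00274). These sizes rest on sh-Control RA arrays of which 3 (Hoxd4, Hoxd8) or 2 (Hoxd9) of 4 were not well above background.

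Against sh-Control RA array 1 alone the 3 differences were smaller, at 1.17 for Hoxd4 (adjusted p = 0.00250), 0.81 for Hoxd8 (adjusted p = 0.0449) and 0.63 for Hoxd9 (adjusted p = 0.0213). Without array 1 they were 2.75, 1.21 and 2.41. Within slides 1, 2 and 4, the ones that hold both lines under RA, the differences were 3.74, 2.18 and 1.2 for Hoxd4, 1.68, 1.26 and 0.86 for Hoxd8 and 3.00, 1.94 and 0.68 for Hoxd9. Each kept its direction in these slides, and the smallest value was that of slide 4, which holds sh-Control RA array 1.

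The ends of the cluster did not pass. Hoxd1 differed by -0.52 ± 0.40 (adjusted p = 0.402), although all sh-SIRT1 RA arrays lay below all sh-Control RA arrays, as they did for 8.92% of all genes. Hoxd12 differed by -0.53 ± 0.32 (adjusted p = 0.266) and Hoxd13 by -0.06 ± 0.25 (adjusted p = 0.896), both with overlapping arrays. Against sh-Control RA array 1 alone Hoxd1, Hoxd12 and Hoxd13 differed by -1.03, -0.15 and -0.48, and none passed (adjusted p = 0.402, 0.881 and 0.505). Hoxd10, which was not in the fit, overlapped through sh-Control RA array 1, and under the filter of at least 3 arrays of a group it differed by 0.81 ± 0.31 (adjusted p = 0.0823).

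In vehicle, sh-SIRT1 against sh-Control asks what the hairpin changed before RA. Hoxd12 was the 1 gene of the 6 that passed, while 8.62% of all genes did, 4.41% higher and 4.21% lower. It had entered the test through sh-SIRT1 vehicle alone, the group where it was highest. It was at -4.99, -5.05 and -5.09 in sh-SIRT1 vehicle, against -7.21, -5.86 and -6.57 in sh-Control vehicle, so that all 3 sh-SIRT1 arrays were higher, as for 18.4% of all genes. For Hoxd4, Hoxd8 and Hoxd9 all 3 were lower, as for 17.5% of all genes, but these are almost all surrogate values. Hoxd12 was at least 1.27-fold higher (adjusted p = 0.0324, means -5.04 and -6.55). The call held in 11 of 16 fits that each left out 1 array. Leaving out an RA array cannot move this difference, only its SE and adjusted p. Of the fits that left out a vehicle array, only the one without sh-Control vehicle array 2 kept the call. The call failed without sh-Control vehicle array 1 or 3 or without any 1 sh-SIRT1 vehicle array (fitted difference 1.17 to 1.53, adjusted p = 0.0777 to 0.0953). It failed too with slide as a fixed block (1.62, adjusted p = 0.0591) and with the replicate block across all groups (1.5, adjusted p = 0.0730), and held with the replicate block within treatment (adjusted p = 0.0423). Within slides 1 and 3 it was higher by 2.16 and 0.77.

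Hoxd1 was lower in sh-SIRT1 vehicle by 1.52 ± 0.51, which did not pass (adjusted p = 0.0797) and rested on sh-Control vehicle array 1. Without that array the difference was -0.69 (adjusted p = 0.147). Without sh-Control vehicle array 2 it was -2.13 (adjusted p = 0.0209), and with the replicate number as a block within treatment it passed (adjusted p = 0.0351), but with that block across all groups (adjusted p = 0.0703) or slide as a fixed block (adjusted p = 0.142) it did not. The second Hoxd13 probe was lower by 1.65 ± 0.39 among all kept probes (adjusted p = 0.0191), while the first gave 0.25 ± 0.31 (adjusted p = 0.681), and neither was well above background on any vehicle array.

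The difference of the RA effects, sh-SIRT1 minus sh-Control, asks whether RA acted differently in the lines. For Hoxd4, Hoxd8 and Hoxd9 it takes in vehicle values that are almost all surrogates, whose own gap between the lines (-0.35 to -0.32) enters the estimate, so the sizes are model values and not measured ones. It passed for 3 of the 6 genes, Hoxd4 and Hoxd8 with a larger effect in sh-SIRT1 cells and Hoxd12 with a lower one, while 3.59% of all genes passed, 1.71% higher and 1.88% lower. Each of the 3 had entered the test through 1 sh-SIRT1 group alone, where it was highest. Hoxd4 gave 2.67 ± 0.50 (adjusted p = 0.0125) and kept its call in all 16 fits that each left out 1 array (2.27 to 3.07). With sh-Control RA array 1 alone it was 1.49 (adjusted p = 0.00724), and with the replicate block within treatment 2.73 (adjusted p = 0.0303). It did not pass with slide as a fixed block (2.53, adjusted p = 0.0808) or with the replicate block across all groups (adjusted p = 0.05004).

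Hoxd8 gave 1.44 ± 0.31 (adjusted p = 0.0225) and lost its call in 4 of those 16 fits. These were the fits without sh-Control vehicle array 2, sh-SIRT1 vehicle array 2 or 3 or sh-Control RA array 4 (1.38, 1.48, 1.36 and 1.37, adjusted p = 0.0513 to 0.0678). It also lost the call with sh-Control RA array 1 alone (1.14, adjusted p = 0.0791), with the replicate block within treatment (1.31, adjusted p = 0.0597) and with slide as a fixed block (1.59, adjusted p = 0.0644). Hoxd9 gave 2.31 ± 0.76 with its first probe, which did not pass (adjusted p = 0.100), and its second probe gave 2.20 ± 0.58, which did (adjusted p = 0.0472). Without sh-Control RA array 1 or 2 the first probe passed too (2.76 and 2.75, adjusted p = 0.0232 and 0.0403), as it did with array 1 alone at a smaller size (0.98, adjusted p = 0.0284).

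Hoxd12 gave -2.03 ± 0.51 (adjusted p = 0.0446), close to the threshold. It lost the call in 12 of the 16 fits, without sh-Control vehicle array 1 or 3, any sh-SIRT1 vehicle array, sh-Control RA array 3 or 4, or any of sh-SIRT1 RA arrays 2 to 6 (-2.11 to -1.71, adjusted p up to 0.106), with the replicate block within treatment (-2.09, adjusted p = 0.0548), with slide as a fixed block (-2.27, adjusted p = 0.109) and with sh-Control RA array 1 alone (-1.66, adjusted p = 0.267). Hoxd1 at 1.01 ± 0.65 and Hoxd13 at -0.31 ± 0.40 did not pass (adjusted p = 0.416 and 0.714), nor did they with sh-Control RA array 1 alone (0.49 and -0.73, adjusted p = 0.853 and 0.556). The second Hoxd13 probe gave 1.18 ± 0.50 (adjusted p = 0.193).

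The choice of background correction, with its offset, changes how many of these calls stand. With normexp and an offset of 50 in place of the processed signal, Hoxd9 and Hoxd13 passed in sh-SIRT1 cells under RA. Hoxd13 also passed in sh-Control cells, and no HoxD gene passed in the other 3 comparisons. The offset is large beside HoxD processed intensities, which reached at most 126, and its own part in the lost calls was not tested. The differences in sh-SIRT1 cells were then 0.87 for Hoxd4, 0.87 for Hoxd8, 1.17 for Hoxd9 and 1.12 for Hoxd13. Hoxd1 was at 0.67 and Hoxd12 at -0.03, and neither passed (adjusted p = 0.264 and 0.971).

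The paralogs of HoxD genes in the other clusters, which share ancestry and much of the homeodomain, give the setting. Of 19 on the array 14 were tested, and 12 were higher under RA in sh-SIRT1 cells and 11 in sh-Control cells with none lower (median 3.78 and 3.27), beside 23% and 19.7% of all genes higher. Hoxb1, a hindbrain gene with well-known RA response elements, was at least 79.8-fold higher in sh-SIRT1 cells and at least 18.9-fold higher in sh-Control cells (adjusted p = 2.22e-08 and 1.07e-06). Under RA 9 of the 14 were higher in sh-SIRT1 than in sh-Control cells (median 1.17), beside 8.61% of all genes. Against sh-Control RA array 1 alone the median over the 14 was 0.85. Among the 9, in the paralog groups of Hoxd4 and Hoxd9, were Hoxa4 by 1.67 ± 0.39, Hoxb4 by 0.94 ± 0.19, Hoxa9 by 1.72 ± 0.40, Hoxb9 by 1.15 ± 0.13 and Hoxc9 by 3.45 ± 0.65. Hoxc4, also tested in the Hoxd4 group, was not among them and differed by 0.12 (adjusted p = 0.797). With array 1 alone Hoxb9 at 1.26 and Hoxc9 at 2.01 passed (adjusted p = 0.00842 and 0.0112), and Hoxa4 at 1.77, Hoxb4 at 0.69 and Hoxa9 at 0.46 did not (adjusted p = 0.157, 0.122 and 0.448). In vehicle 1 of the 14 passed, Hoxb9, higher by 0.81 ± 0.17 (adjusted p = 0.00825). For the difference of the RA effects 0 of the 14 passed in limma, and 6 had an unadjusted p under 0.05. The median of this difference over the 14 was 1.10, and 0.35 with array 1 alone, where Hoxb1 was at 3.65.

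**Figure D3:**
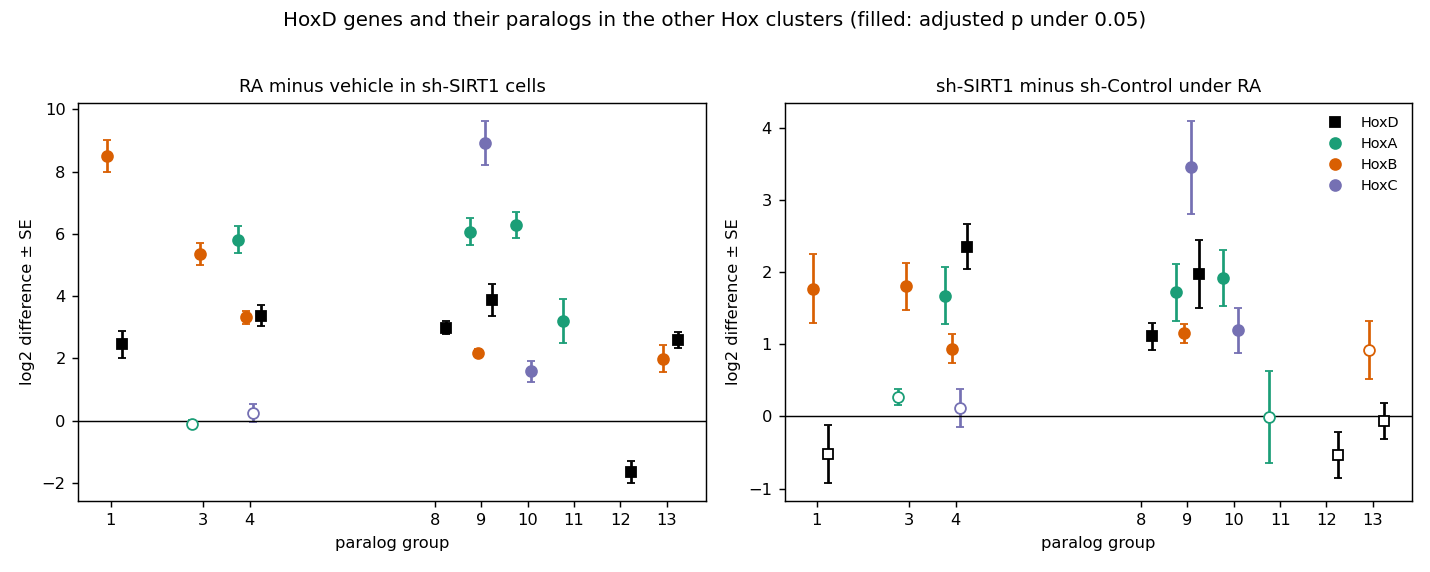
Fitted log2 differences (± SE) of the tested HoxD genes (squares) and of their paralogs in HoxA, HoxB and HoxC (circles, 1 tested paralog not shown) by paralog group, for RA against vehicle in sh-SIRT1 cells (left) and sh-SIRT1 against sh-Control under RA (right). Filled points have an adjusted p under 0.05. On the right, Hoxd4 at 2.35 lies with filled Hoxa4 and Hoxb4 and with open Hoxc4 at 0.12. Hoxd9 at 1.97 lies with filled points of its group, and Hoxd1, Hoxd12 and Hoxd13 are open.

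The genes around the cluster were expressed with and without RA. Of 7 tested neighbours, all well above background on all vehicle arrays, 1 was higher and 3 lower under RA in sh-SIRT1 cells, and 1 was higher and 1 lower in sh-Control cells. These shares are near or below those of all genes, of which 58.2% and 46.8% passed. Lnpk, a gene of the endoplasmic reticulum 5′ of Hoxd13, was higher by 0.26 ± 0.10 in sh-SIRT1 cells and 0.66 ± 0.11 in sh-Control cells (adjusted p = 0.0350 and 2.48e-04). Mtx2, a mitochondrial import gene 3′ of Hoxd1, was lower by 0.38 in sh-SIRT1 cells (SE 0.11, adjusted p = 0.0108). Evx2, the homeobox gene next to Hoxd13, was well above background on all 16 arrays and differed by 0.15 ± 0.41 in sh-SIRT1 cells and -0.63 ± 0.44 in sh-Control cells (adjusted p = 0.776 and 0.255). The antisense transcript Hoxd3os1, listed on the array as 1700109F18Rik, was well above background with 1 of its probes on 3 of 6 sh-SIRT1 RA arrays and 1 of 4 sh-Control RA arrays, against 1 of 3 sh-SIRT1 vehicle and 0 of 3 sh-Control vehicle arrays.

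Among 15 genes of the RA pathway, 10 were higher and 4 lower under RA in sh-SIRT1 cells and 9 higher and 4 lower in sh-Control cells. Of all genes 23% were higher and 35.3% lower in sh-SIRT1 cells, and 19.7% and 27.2% in sh-Control cells, so the number lower is near or below the background. Rarb, an RA receptor that is itself an RA target, was at least 59.9-fold and at least 22.3-fold higher (adjusted p = 1.02e-08 and 3.58e-07). Crabp2, a carrier that hands RA to its receptors, was higher by 4.52 ± 0.26 and 0.83 ± 0.28, and its RA effect differed between the lines by 3.70 ± 0.38 (adjusted p = 5.31e-04), and by 3.74 with array 1 alone (adjusted p = 0.00724). Dhrs3, which turns retinal back to retinol, was the other gene of the list with such a difference, at 2.82 ± 0.68 (adjusted p = 0.0365), which did not pass with array 1 alone (adjusted p = 0.121). Cyp26a1, which degrades RA, was at least 70.6-fold and at least 63.9-fold higher (adjusted p = 1.10e-06 and 1.87e-06), and the difference of its fitted RA effects of -0.56 ± 0.89 did not pass (adjusted p = 0.776).

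Of 15 Polycomb and trithorax genes 3 were higher and 8 lower under RA in sh-SIRT1 cells, and 1 was higher and 5 lower in sh-Control cells. That is 11 and 6 of 15, beside 58.2% and 46.8% of all genes, so the list does not stand out from the background in sh-Control cells. Bmi1, a Polycomb subunit, was higher by 2.44 ± 0.15 and 1.92 ± 0.16 (adjusted p = 2.13e-08 and 6.03e-07). Eed, a core subunit of the complex that methylates histone H3, fell by 1.47 in sh-SIRT1 cells and by 1.02 in sh-Control cells (adjusted p = 5.83e-07 and 5.38e-05). Under RA, 2 were higher and 3 lower in sh-SIRT1 than in sh-Control cells, beside 8.61% and 11.7% of all genes. The median over the 15 was 0.02, and 0.09 against array 1 alone. For the difference of the RA effects and in vehicle 0 of the 15 passed in limma, where 5 and 3 had an unadjusted p under 0.05.

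Among the 5 genes whose pattern over the 16 arrays was most like that of Hoxd13, by the root mean square difference of centred log2 levels, were Hmgn3 (0.36), E330037M01Rik (0.37), Gpr182 (0.37) and A530032D15Rik (0.40). The rule took Hoxd13, whose mean over the RA arrays was the highest.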

How the data were processed

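Per the file headers, the authors' deposited scanner files hold 1-colour intensity values made with Feature Extraction 9.5.3.1, with spatial and multiplicative trends removed and surrogates for signals near background. The submitters' processing notes name version 9.5. The series matrix equalled the processed intensity on all 45018 spots.

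Control spots were left out, outlier-marked spots set to missing and spots of a probe averaged. The log2 processed intensity minus the array's 75th percentile was the level. Of 41174 probes 26371 passed, being well above background throughout some group, giving 18278 genes, each represented by its probe of highest mean. Limma 3.58.1 (R 4.3.3, lmFit and eBayes, 12 residual df) gave two-sided tests, adjusted by Benjamini-Hochberg at a threshold of 0.05. The fit was also run on simulated data with normal noise. These held no background floor and no surrogate values, so they do not bear on signals at background. Other probes of HoxD genes come from the fit over all kept probes.

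All 9 HoxD genes are named, and other lists are given by counts with up to 4 examples of small adjusted p, besides the paralogs in the groups of Hoxd4 and Hoxd9, and Evx2, Mtx2, Dhrs3 and Hoxd3os1, named after their values were seen. Values of 2 genes in these lists are not reported here. The members and lists were chosen with earlier results of these data known. The 7 same-numbered pairs of sh-SIRT1 and sh-Control arrays correlated at 0.36 to 0.54 in their deviations from group means. In vehicle every same-numbered pair (0.36 to 0.51) was above every differently numbered pair (-0.50 to 0.33). Under RA differently numbered pairs ranged from -0.62 to 0.52 (sh-SIRT1 array 5 with sh-Control array 3). These values do not settle whether numbers pair samples. The main fit took no account of such pairing, and the replicate blocks were run as alternatives. The SD of log2 differences was 0.32 between sh-SIRT1 RA arrays 1 and 2, and 0.27 to 0.36 among arrays 3 to 6. Between these sets it was 0.53 to 0.62. For sh-Control RA it was 0.21 between arrays 3 and 4 and 0.63 to 0.74 otherwise. The 16 arrays lay on 4 slides, each holding several groups. Promoters were RefSeq windows of GRCm38.p6. Alternatives covered background correction, scaling, filters, slide and replicate blocks, the choice of probe, the arrays in the fit and leaving out each array. The other lists with sh-Control RA array 1 alone were added after seeing the data.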

Additional observations from a re-analysis of the deposited data

Results flagged for a closer look

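The RA effect differed between the lines, by an interaction term in limma, for Hoxd4 (2.67), Hoxd8 (1.44), the second Hoxd9 probe (2.20) and Hoxd12 (-2.03), in fitted log2 units as sh-SIRT1 minus sh-Control. Hoxd4, Hoxd8 and Hoxd9 entered the test through sh-SIRT1 RA alone and Hoxd12 through sh-SIRT1 vehicle alone, and the vehicle values of the 3 named first are almost all surrogates, so these sizes are not measured folds. With slide as a fixed block Hoxd4, Hoxd8 and Hoxd12 did not pass (adjusted p = 0.0808, 0.0644 and 0.109). Hoxd4 kept this call in all 16 fits that left out 1 array, Hoxd8 in 12 and Hoxd12 in 4. Of 24 groups of 4 or 6 arrays checked over the 12 HoxD probes, 0 had an array past Dixon's limit.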

How the results depend on the processing

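With normexp background correction and its offset of 50 the number of HoxD genes called fell to 2 for RA in sh-SIRT1 cells. It fell to 1 for RA in sh-Control cells and 0 for the other comparisons. Requiring all 16 arrays above background left 0 HoxD genes tested and so 0 calls. Slide as a fixed block gave 2 calls for RA in sh-Control cells and 0 both for the hairpin in vehicle and for the difference of the RA effects. Fitting only the groups compared gave 1 for RA in sh-Control cells, with 2 HoxD genes tested, and testing all probes without a filter gave 0 in vehicle. The replicate block within treatment gave 2 calls in vehicle (Hoxd12 and Hoxd1) and 1 for the difference (Hoxd4). It gives no value for RA against vehicle, so the replicate block across all groups was added after seeing the data, with 0 calls in vehicle and 0 for the difference (Hoxd4 adjusted p = 0.05004) and no other count changed by over 1.5 times. Leaving out single arrays gave 6 to 7 calls for RA in sh-SIRT1 cells (7 without sh-SIRT1 RA array 4, where Hoxd10 entered the test), 2 to 5 for RA in sh-Control cells, 3 to 3 for the hairpin under RA, 0 to 2 in vehicle and 1 to 4 for the difference. Hoxd13 changed sign where it was not called: under RA at 0.073 with the slide block and 0.081 without sh-Control RA replicate 1, in vehicle at -0.17 with normexp and -0.70 with the mean of its probes, and for the difference at 0.051 with normexp and 0.43 with the mean of its probes. Of 872 values of the 6 tested genes under an alternative, 795 kept direction and side of the threshold, 63 lost the call, 8 gained it and 6 changed sign. Many of the 872 could not move in size, so the 795 does not measure stability. Among these are the series matrix values, which equal the processed intensity, and the mean of probes for genes with 1 probe. Leaving out an array outside the comparison likewise keeps the size. Apart from what is stated here the cause of the changes was not tested. HoxD signals lie near background, and surrogate values limit what vehicle arrays can show.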
